A study of Mus musculus with 12 samples.

Results

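The genes described here encode the machinery that stores, releases and retrieves synaptic vesicles in nerve terminals. The members were 42 genes listed by symbol, all of them found in the count table of 21956 genes, and they fall into 7 roles: 11 synaptotagmins, 8 synaptic vesicle proteins, 5 SNARE proteins or their recycling ATPase, 3 complexins, 8 active zone scaffolds and priming factors, 3 genes of the RAB3 GTPase system and 4 genes of vesicle endocytosis. They were measured by RNA-seq in brain tissue beside the hematoma of 12 mice, with 3 per group: Sham-Fabp4fl_fl, Sham-Fabp4CKO, ICH-Fabp4fl_fl and ICH-Fabp4CKO. Intracerebral hemorrhage (ICH) was produced by injecting collagenase, an enzyme that breaks down vessel walls, into the right striatum, and tissue was taken 48 h later. All 4 groups carried floxed Fabp4 alleles (fl_fl stands for flox/flox), the gene of fatty acid-binding protein 4, and the CKO mice also carried Tmem119-CreERT2, in which the microglial promoter Tmem119 drives a tamoxifen-dependent Cre recombinase. Cre was activated by daily tamoxifen (150 mg/kg) over 7 days, and surgery followed 14 days later. Whether the mice without Cre also received tamoxifen, and the age of the floxed mice, are not given in the sources used here. The comparisons ask how these neuronal genes responded to ICH in each genotype, and whether they differed between genotypes after ICH or after sham surgery.

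Nerve terminals fill vesicles with transmitter, dock them at the active zone, prime them, fuse them when calcium enters and recover the membrane by endocytosis. RIM, piccolo and bassoon build the active zone, MUNC13 proteins prime docked vesicles, SNARE proteins pull the membranes together under the control of complexins, and synaptotagmins sense calcium. In the striatum and the overlying cortex these genes are expressed mainly by neurons, while the fusion machinery of glia and leukocytes uses other family members.

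The libraries held between 15650813 and 22406216 counts. Fabp4 itself, the targeted gene, had 46, 63 and 24 counts in the 3 ICH-Fabp4fl_fl mice against 5, 3 and 10 in the ICH-Fabp4CKO mice, and it was near 0 in sham tissue (2, 1 and 2 counts in Sham-Fabp4fl_fl, 0 in each Sham-Fabp4CKO library, which allows up to 3 counts). Levels are given in CPM, that is, as counts relative to library size after scaling by the trimmed mean of M-values (TMM) over the 12 libraries. Defining markers of neurons were high in every sham library: 16 pan-neuronal genes summed to between 5149.8 and 5945 CPM in Sham-Fabp4fl_fl. Some libraries stood apart from the others of their group in marker sums. In ICH-Fabp4CKO mouse 2 the pan-neuronal genes summed to 4189 CPM, against 2232 and 1467 CPM in mice 1 and 3, while 10 monocyte and macrophage genes summed to 1352 CPM against 6765 and 10816 CPM, and 10 cortical excitatory neuron genes to 556 CPM against 146 and 159 CPM. In Sham-Fabp4fl_fl mouse 3 the 11 striatal projection neuron genes summed to 6287 CPM, against 1990.4 and 2292 CPM in mice 1 and 2, while 10 thalamic neuron genes summed to 323 CPM against 1565 and 1094 CPM. The Sham-Fabp4CKO mice had striatal sums of 5220.2, 7326 and 4167 CPM and thalamic sums of 399, 347 and 558 CPM, so mouse 3 lay closer to them than to its own group. In ICH-Fabp4fl_fl mouse 3 the striatal genes summed to 5062 CPM, against 1549 and 2064 CPM in mice 1 and 2. Its thalamic sum was 386 CPM against 185 and 175 CPM, and its macrophage sum 1211 CPM against 3549 and 2523 CPM. Calls that changed when ICH-Fabp4CKO mouse 2 or Sham-Fabp4fl_fl mouse 3 was left out are named or counted with the results. The number of members that fell without ICH-Fabp4fl_fl mouse 3 is given as well.

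**Figure D1:**
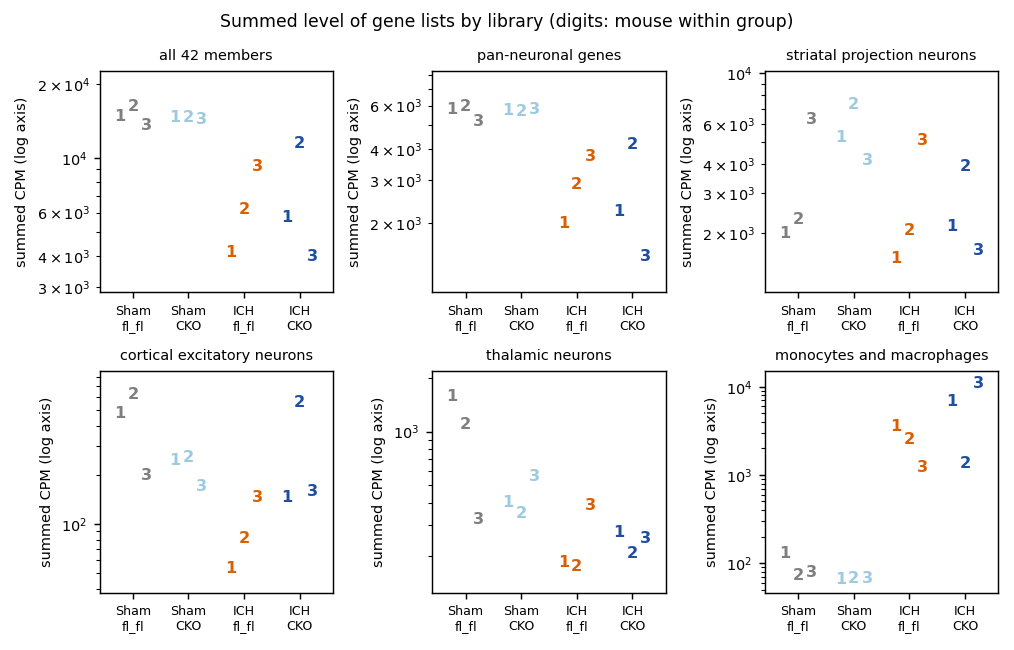
Summed CPM (log axis) of the 42 presynaptic genes and of marker lists for neurons, neuron classes and macrophages in each library, with digits marking mouse 1, 2 or 3 of each group. The members summed to between 13599.8 and 16188 CPM in Sham-Fabp4fl_fl and between 4121 and 9268 CPM in ICH-Fabp4fl_fl, and ICH-Fabp4CKO mouse 2, at 11469 CPM, sat above all other ICH libraries.

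After ICH the presynaptic genes were lower as a group in Fabp4fl_fl mice. All 42 were tested, 28 fell (edgeR quasi-likelihood test, Benjamini-Hochberg adjusted p under 0.05 over 14719 genes), none rose and 14 were not called. Of all genes tested in this comparison 19.3% were called lower and 26.2% higher. The median log2 fold change of the members was -1.21, against 0.019 for all genes tested, and 40 of the 42 had a value below 0. In 29 members the 3 ICH-Fabp4fl_fl libraries lay below the 3 Sham-Fabp4fl_fl libraries without overlap, which was so for 27.4% of all genes tested. In bulk tissue, fewer neurons or nerve terminals, another mix of neuron classes in the piece taken and less RNA per neuron cannot be told apart. The 16 pan-neuronal genes had a median log2 fold change of -1.14 in the same comparison, with 13 called lower, and the 10 monocyte and macrophage genes had a median of 5.43, with 10 called higher. The cortical excitatory neuron genes had a median of -2.94, with 8 of 10 called lower, and the thalamic neuron genes -2.35, with 6 of 10. The striatal projection neuron genes had a median of -0.43, with 0 of 11 called. The part of any of these lists in the members' values was not tested.

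The members spread widely after ICH. The median coefficient of variation among the 3 mice of a group was 19.4% in Sham-Fabp4fl_fl and 6.80% in Sham-Fabp4CKO, against 42.2% in ICH-Fabp4fl_fl and 53.9% in ICH-Fabp4CKO. Within ICH-Fabp4fl_fl, mouse 1 had the lowest level for 39 members and mouse 3 the highest for 39. Mouse 1 also had the largest share of mitochondrial counts of all libraries, 16.3% against 7.90% to 11.9% in the other 11. The part of that share in the result was not tested. Without mouse 1, 25 members fell, all of them among the 28, against 15.3% of all genes called lower in that fit. Leaving out ICH-Fabp4fl_fl mouse 2 reduced the number that fell to 14, all of them among the 28, against 9.83% of all genes called lower in that fit, whereas leaving out mouse 3 raised it to 36, against 25.8%. Without Sham-Fabp4fl_fl mouse 3 there were 27, against 15.1%.

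In Fabp4CKO mice the direction was shared but fewer members were called. Here 9 fell and none rose, against 11.1% of all genes called lower and 24.5% higher. The median log2 fold change of the 42 members was -1.08, against 0.014 for all genes, and 40 members were again below 0. The 9 called were Syt2, Syt4, Syt6, Syt10, Syt12, Syn3, Rims3, Unc13c and Synj1. In 36 members the ICH-Fabp4CKO libraries lay below the Sham-Fabp4CKO libraries without overlap, which was so for 28.9% of all genes. The count depended on ICH-Fabp4CKO mouse 2, which had the highest level of its group for 40 members and exceeded both other mice by more than 1.5 times for 31. Without it, 40 of the 42 fell, against 32.7% of all genes called lower in that fit, and the median log2 fold change was -1.62. With it in, leaving out another library gave between 0 and 5 members, in fits that called between 0.335% and 4.68% of all genes lower. DESeq2 on all 6 libraries called 35 members lower, against 24.1% of all genes. The cortical excitatory, thalamic and striatal projection neuron genes had medians of 0.12, -1.03 and -1.09 with mouse 2. Without it the medians were -0.21, -0.92 and -1.56. The part of these lists in the members' values was not tested. The Fabp4fl_fl and Fabp4CKO comparisons share no libraries, and which genes passed in each is not a test of a difference between genotypes, which is given further on.

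**Figure D2:**
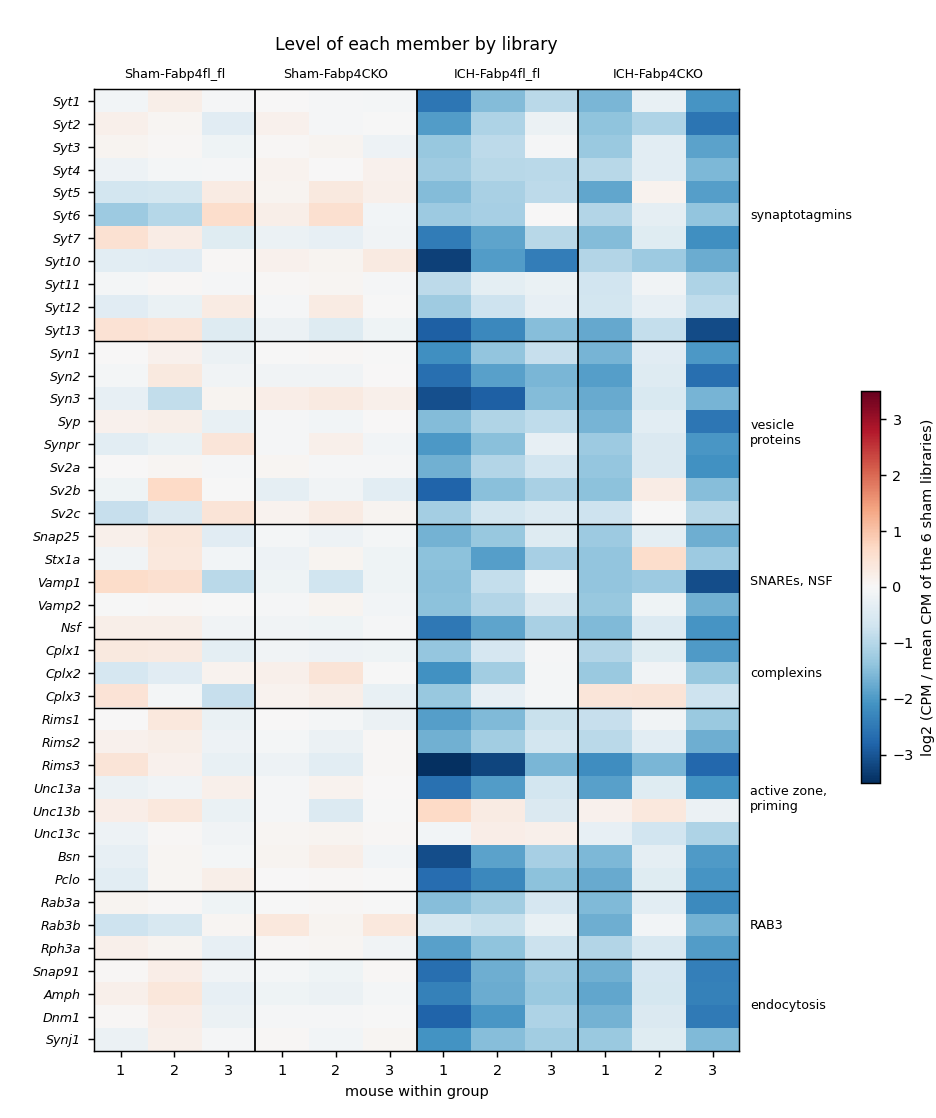
Level of each of the 42 members (rows, grouped by role) in each of the 12 libraries (columns, mice 1 to 3 of each group), as log2 of its CPM over its mean CPM in the 6 sham libraries. Blue marks lower levels: the ICH columns are blue for most rows, with ICH-Fabp4fl_fl mouse 3 and ICH-Fabp4CKO mouse 2 the palest of their groups, and the rows of Unc13b and Unc13c are pale in the ICH-Fabp4fl_fl columns.

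**Figure D3:**
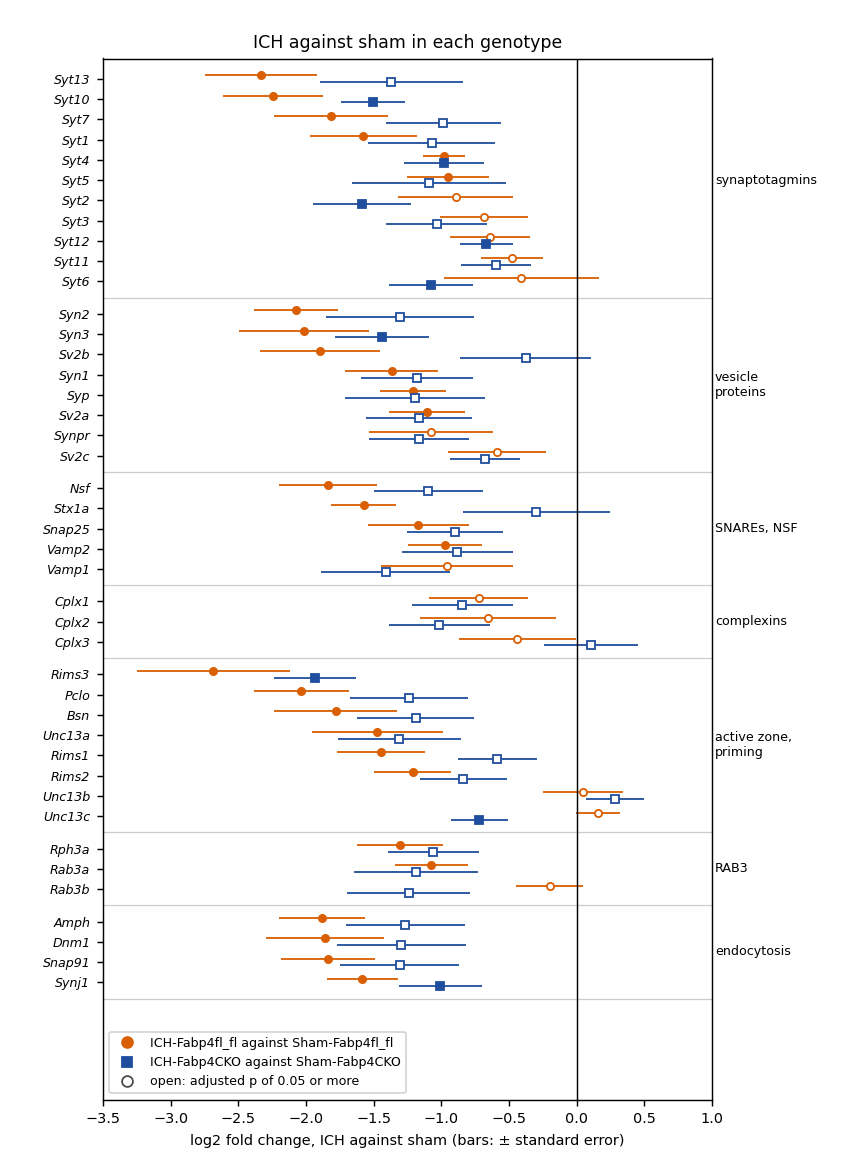
Log2 fold change of each member in ICH against sham (points, with bars of 1 standard error) in Fabp4fl_fl and Fabp4CKO mice, grouped by role and filled where the adjusted p was under 0.05. The 28 filled circles and 9 filled squares all lie left of 0.

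The genes of the active zone held the member with the largest change. In Fabp4fl_fl mice 6 of the 8 fell, with a median log2 fold change of -1.46, and in Fabp4CKO mice 2 fell. Rims3 encodes a short RIM protein that modulates calcium channels at the terminal. It stood at 337, 278 and 205 CPM in Sham-Fabp4fl_fl and 19.6, 26.7 and 82.6 CPM in ICH-Fabp4fl_fl, without overlap, and its log2 fold change of -2.68 ± 0.56 (SE, adjusted p = 0.00849) was the lowest of the 42. In Fabp4CKO mice it went from 219, 194 and 256 CPM to 55.2, 82.2 and 37.2 CPM, a log2 fold change of -1.94 ± 0.30 (adjusted p = 0.00911), and again the groups did not overlap. Pclo encodes piccolo, a giant scaffold that spans the active zone. Its levels were 187, 253 and 277 CPM in Sham-Fabp4fl_fl and 38.2, 50.3 and 89.4 CPM in ICH-Fabp4fl_fl, a log2 fold change of -2.04 ± 0.35 (adjusted p = 0.00392). In Fabp4CKO mice Pclo stood at 246, 248 and 239 CPM after sham surgery and 71.6, 181 and 57.6 CPM after ICH, where mouse 2 was far above mice 1 and 3. The log2 fold change there was -1.24 ± 0.43 (adjusted p = 0.0647), and -1.92 without mouse 2 (adjusted p = 1.83e-05).

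The long RIM scaffolds, which tether calcium channels and vesicles, were also lower in Fabp4fl_fl mice. Rims1 changed by -1.45 ± 0.32 on the log2 scale (adjusted p = 0.0108) and Rims2 by -1.21 ± 0.28 (adjusted p = 0.0123). Bsn, the gene of the scaffold bassoon, and Unc13a, the gene of MUNC13-1, the main priming factor of forebrain synapses, fell as well. Without Sham-Fabp4fl_fl mouse 3 the value of Unc13a was -1.39 and no longer passed (adjusted p = 0.0954). The other MUNC13 genes did not follow. Unc13b, which encodes MUNC13-2, stood at 15.9, 17.4 and 11.6 CPM in Sham-Fabp4fl_fl and 21.8, 16.6 and 9.57 CPM in ICH-Fabp4fl_fl, with overlapping groups and a log2 fold change of 0.046 ± 0.30 (adjusted p = 0.909) whose sign turned when counts were scaled to library totals. Unc13c, which encodes MUNC13-3, a form best known from the cerebellum, stood at 116, 137 and 121 CPM in Sham-Fabp4fl_fl and 123, 156 and 149.8 CPM in ICH-Fabp4fl_fl, a log2 fold change of 0.16 ± 0.16 (adjusted p = 0.445). In Fabp4CKO mice Unc13c fell from 138, 142 and 137 CPM to 108, 82.7 and 61.8 CPM, a log2 fold change of -0.72 ± 0.21 (adjusted p = 0.0426), and there mouse 2 was not the highest. Unc13b had a log2 fold change of 0.28 ± 0.21 in Fabp4CKO mice (adjusted p = 0.303).

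**Figure D4:**
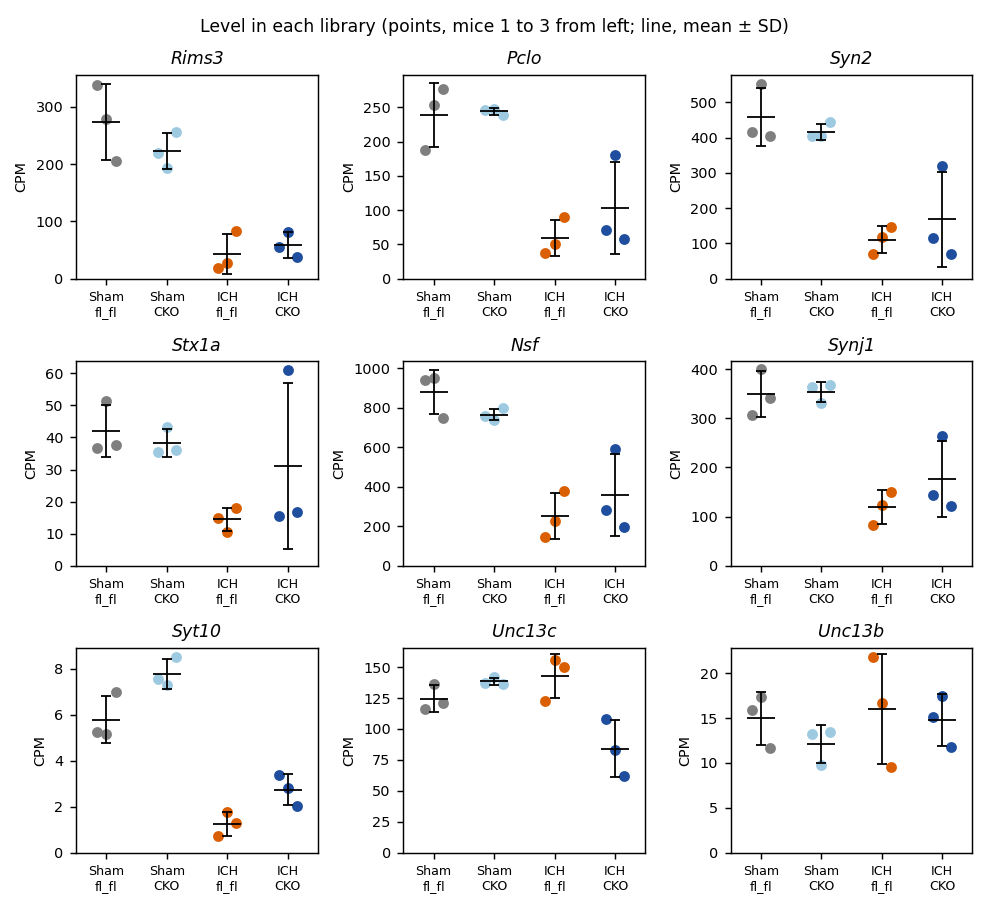
CPM of 9 members in each of the 12 libraries (points, mice 1 to 3 of each group from left to right) with the group mean ± SD (lines, n = 3 per group). Rims3, Pclo, Syn2, Nsf, Synj1 and Syt10 lie lower in ICH-Fabp4fl_fl than in Sham-Fabp4fl_fl without overlap, Stx1a does so in Fabp4fl_fl but not in Fabp4CKO mice, where mouse 2 stood at 61.0 CPM, and Unc13b overlaps between sham and ICH in both genotypes.

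Sequences upstream of the start site are shown for the active zone genes that fell most in Fabp4fl_fl mice (Rims3 and Pclo), for the MUNC13 genes that did not fall there (Unc13b and Unc13c), and for Syn1, whose promoter is widely used to drive neuronal transgenes. They come from RefSeq on GRCm38.p6 and hold at most 250 bases before the annotated start of transcription, cut where an annotated exon begins. RefSeq promoters were matched by symbol for 33 of the 42 members. Capitals mark the SP1 box GGGCGG, read on either strand so that it also appears as CCGCCC, and the cAMP response element TGACGTCA.
Rims3 (chr4:120854549-120854798, + strand): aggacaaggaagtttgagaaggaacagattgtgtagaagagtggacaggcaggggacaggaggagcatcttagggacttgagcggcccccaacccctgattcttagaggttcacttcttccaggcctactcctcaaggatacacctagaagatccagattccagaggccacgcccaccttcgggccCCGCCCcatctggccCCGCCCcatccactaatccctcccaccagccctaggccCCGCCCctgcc
Pclo (chr5:14514668-14514917, + strand): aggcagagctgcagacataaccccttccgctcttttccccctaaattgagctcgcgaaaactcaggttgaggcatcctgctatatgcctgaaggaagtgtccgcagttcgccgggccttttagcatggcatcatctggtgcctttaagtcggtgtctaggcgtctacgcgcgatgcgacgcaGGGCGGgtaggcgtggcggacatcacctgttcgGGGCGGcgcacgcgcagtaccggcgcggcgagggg
Unc13b (chr4:43058703-43058952, + strand): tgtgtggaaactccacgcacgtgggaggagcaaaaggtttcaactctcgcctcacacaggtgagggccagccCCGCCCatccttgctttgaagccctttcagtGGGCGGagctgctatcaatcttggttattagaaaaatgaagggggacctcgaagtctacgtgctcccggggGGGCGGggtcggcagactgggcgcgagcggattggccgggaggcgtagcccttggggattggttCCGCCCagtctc
Unc13c (chr9:73969038-73969287, - strand): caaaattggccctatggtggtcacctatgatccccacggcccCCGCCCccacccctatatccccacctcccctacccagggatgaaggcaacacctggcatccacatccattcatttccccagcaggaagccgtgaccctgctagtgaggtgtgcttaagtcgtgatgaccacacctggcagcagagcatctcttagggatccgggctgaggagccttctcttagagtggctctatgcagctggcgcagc
Syn1 (chrX:20921005-20921168, - strand): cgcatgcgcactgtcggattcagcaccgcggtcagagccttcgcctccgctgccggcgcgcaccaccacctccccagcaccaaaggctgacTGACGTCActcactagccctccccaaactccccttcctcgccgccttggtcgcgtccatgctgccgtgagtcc

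The SP1 box occurred 3 times in the stretch of Rims3, 2 times in that of Pclo, 4 times in that of Unc13b and 1 time in that of Unc13c, so members that fell and members that did not both held it. In the 250 upstream bases, 22 of the 33 matched members (66.7%) had at least 1 SP1 box, against 42.7% of 17491 protein-coding promoters, and their median GC content was 61.2% against 55.2%. The cAMP response element was found in Syn1 alone of the 33 members (3.03%, against 2.01% of the promoters). The left part CAGCACC of the RE1 element, through which the REST repressor silences neuronal genes elsewhere in the body, was found in Sv2c, Syn1 and Syt10 (9.09%, against 5.61%), and the E-box CAGCTG in 8 members (24.2%, against 11.6%). The TATA box TATAAA was found in Rab3b and Sv2b (6.06%, against 12.4%), and CAGCACC followed after 2 bases by GGACAG, the core of RE1, in 0 of the 33 members (against 0.0343% of the promoters). These are matches of letters on either strand and do not show that a factor bound there.

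Vesicle endocytosis was the role in which every member fell in Fabp4fl_fl mice. All 4 genes were lower, with a median log2 fold change of -1.85 and a narrow range from -1.88 for Amph to -1.58 for Synj1. Synj1 encodes synaptojanin 1, a phosphatase that strips the clathrin coat from recovered vesicles. It stood at 306, 400.3 and 342 CPM in Sham-Fabp4fl_fl and 82.4, 124 and 151 CPM in ICH-Fabp4fl_fl, a log2 change of -1.58 ± 0.26 (adjusted p = 0.00339). In Fabp4CKO mice the levels were 365, 331 and 367 CPM and 143, 264 and 121 CPM, a log2 change of -1.01 ± 0.31 (adjusted p = 0.0461). Amph encodes amphiphysin, which bends the membrane and recruits dynamin. It stood at 197, 227 and 141 CPM in Sham-Fabp4fl_fl and 33.6, 52.3 and 70.6 CPM in ICH-Fabp4fl_fl (adjusted p = 0.00362), and in Fabp4CKO mice at 157, 150.3 and 167 CPM and 49.3, 114 and 33.6 CPM (log2 fold change -1.27 ± 0.44, adjusted p = 0.0629). Snap91, the gene of the clathrin assembly protein AP180, fell by 1.84 ± 0.35 on the log2 scale in Fabp4fl_fl mice and Dnm1, the gene of the membrane-cutting GTPase dynamin 1, by 1.86 ± 0.43. In Fabp4CKO mice neither passed the threshold (log2 fold changes -1.31 and -1.3, adjusted p = 0.0589 and 0.0725).

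Among the synaptotagmins 6 of the 11 fell in Fabp4fl_fl mice and 5 in Fabp4CKO mice, and all 11 had values below 0 in both. Syt4 encodes a synaptotagmin that is induced by activity and binds calcium weakly. Its levels were 179, 195 and 198 CPM in Sham-Fabp4fl_fl and 86.6, 105 and 106 CPM in ICH-Fabp4fl_fl, without overlap, and the log2 fold change of -0.98 ± 0.16 (adjusted p = 0.00292) had the smallest standard error of the family. In Fabp4CKO mice Syt4 stood at 220.1, 206 and 224 CPM and 104, 156 and 68.6 CPM, a log2 change of -0.98 ± 0.29 (adjusted p = 0.0448). Syt10, a calcium sensor for the release of growth factor from dense vesicles in some neurons, had 10 to 185 counts per library. It was at 5.25, 5.15 and 6.97 CPM in Sham-Fabp4fl_fl and 0.704, 1.75 and 1.28 CPM in ICH-Fabp4fl_fl (log2 fold change -2.24 ± 0.37, adjusted p = 0.00333), and at 7.54, 7.30 and 8.51 CPM and 3.36, 2.82 and 2.02 CPM in the Fabp4CKO groups (-1.51 ± 0.24, adjusted p = 0.00915).

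The other synaptotagmins ranged from -2.33 for Syt13 to -0.41 for Syt6 on the log2 scale in Fabp4fl_fl mice. Syt1, the sensor of fast synchronous release in forebrain neurons and picked for that role with its values in view, went from 1106, 1342 and 1144 CPM to 202, 408 and 616 CPM in Fabp4fl_fl mice and fell by 1.58 ± 0.40 on the log2 scale (adjusted p = 0.0165). Syt7, a sensor of slower asynchronous release, and Syt13, which lacks calcium-binding residues, fell by 1.82 and 2.33 (adjusted p = 0.0124 and 0.00445), and in both Sham-Fabp4fl_fl mouse 3 was lower than mice 1 and 2. Syt2, the fast sensor of hindbrain neurons and fast-spiking interneurons, was not called in Fabp4fl_fl mice (log2 fold change -0.90 ± 0.42, adjusted p = 0.119) but fell in Fabp4CKO mice (-1.59 ± 0.36, adjusted p = 0.0224). Syt6 stood at 39.6, 47.2 and 146 CPM in Sham-Fabp4fl_fl and 39.5, 42.5 and 96.1 CPM in ICH-Fabp4fl_fl, where 1 library in each group was more than 2 times the others. Its log2 fold change of -0.41 ± 0.57 (adjusted p = 0.578) turned to 0.38 without Sham-Fabp4fl_fl mouse 3, whereas in Fabp4CKO mice it was -1.08 ± 0.31 (adjusted p = 0.0412). Syt3, Syt11 and Syt12 were not called in Fabp4fl_fl mice, with log2 fold changes of -0.68, -0.48 and -0.64 and adjusted p = 0.120, 0.120 and 0.111. Syt5, a relative of Syt1, fell in Fabp4fl_fl mice by 0.95 ± 0.30 (adjusted p = 0.0368), and without Sham-Fabp4fl_fl mouse 3 it stood at -0.62 (adjusted p = 0.0699). Syt12 fell in Fabp4CKO mice (-0.67 ± 0.19, adjusted p = 0.0408). Syt6, Syt11 and Syt12 held values that were not whole in at least 1 library, as did Syn2, Cplx2 and Unc13a, so some of their reads were shared with other genes and their levels are less certain.

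Of the proteins that sit in or on the vesicle 6 of 8 fell in Fabp4fl_fl mice, with a median log2 fold change of -1.29. Syn2 encodes synapsin II, which ties vesicles to the reserve pool. It stood at 416, 553 and 405 CPM in Sham-Fabp4fl_fl and 70.2, 117 and 145 CPM in ICH-Fabp4fl_fl, a log2 change of -2.07 ± 0.31 (adjusted p = 0.00215), which had the smallest p of the 42. In Fabp4CKO mice it stood at 404, 404 and 443 CPM and 115, 321 and 69.7 CPM, and the log2 change was -1.31 ± 0.54 with mouse 2 (adjusted p = 0.0970) and -2.18 ± 0.22 without it (adjusted p = 1.11e-04). Syp, the gene of synaptophysin, the most used marker of vesicles, stood at 1051, 1088 and 783 CPM in Sham-Fabp4fl_fl and 331, 456 and 507 CPM in ICH-Fabp4fl_fl (log2 fold change -1.21 ± 0.24, adjusted p = 0.00732). Syn1 and Sv2a, genes of synapsin I and of the glycoprotein SV2A, fell as well. In the Fabp4CKO groups Syp was at 914, 879.9 and 944 CPM and 306, 724 and 164 CPM (-1.2 ± 0.52, adjusted p = 0.105).

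Syn3, a further synapsin gene, fell in both genotypes, by 2.02 ± 0.48 in Fabp4fl_fl and by 1.44 ± 0.35 in Fabp4CKO mice on the log2 scale (adjusted p = 0.0132 and 0.0266). Sv2b, a vesicle glycoprotein common in cortical terminals, went from 168, 299 and 183 CPM to 26.6, 66.9 and 84.3 CPM in Fabp4fl_fl mice and fell by 1.9 ± 0.45 (adjusted p = 0.0128). In Fabp4CKO mice it stood at 149, 169 and 143 CPM and 68.9, 219.7 and 65.7 CPM, mouse 2 lay above all Sham-Fabp4CKO mice, and the log2 fold change moved from -0.38 (adjusted p = 0.539) to -1.19 without that mouse (adjusted p = 8.32e-05). Sv2c and Synpr, the gene of synaptoporin, were not called in Fabp4fl_fl mice, with log2 fold changes of -0.59 ± 0.36 and -1.08 ± 0.46 (adjusted p = 0.215 and 0.0894), nor in Fabp4CKO mice (adjusted p = 0.0806 and 0.0503). The value of Sv2c was -0.16 in Fabp4fl_fl mice without Sham-Fabp4fl_fl mouse 3.

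The neuronal SNARE complex joins SNAP-25 and syntaxin 1 of the plasma membrane with VAMP of the vesicle, and NSF takes spent complexes apart. In Fabp4fl_fl mice 4 of these 5 genes fell and in Fabp4CKO mice none passed the threshold. Stx1a, one of the syntaxin 1 genes, stood at 36.8, 51.5 and 37.8 CPM in Sham-Fabp4fl_fl and 14.9, 10.5 and 17.9 CPM in ICH-Fabp4fl_fl (log2 fold change -1.57 ± 0.24, adjusted p = 0.00251). In the Fabp4CKO groups it was at 35.6, 43.2 and 36.0 CPM and 15.5, 61.0 and 16.7 CPM, so that ICH-Fabp4CKO mouse 2 exceeded every other library in the study. The log2 fold change there was -0.30 ± 0.54 (adjusted p = 0.666) and -1.24 ± 0.13 without mouse 2 (adjusted p = 1.48e-04). Nsf went from 939, 947 and 748 CPM to 145, 228 and 376 CPM in Fabp4fl_fl mice, a log2 change of -1.84 ± 0.36 (adjusted p = 0.00669), and from 759.9, 738 and 797 CPM to 282, 593 and 198 CPM in Fabp4CKO mice (-1.1 ± 0.40, adjusted p = 0.0724). Snap25 and Vamp2 fell by 1.17 and 0.97 on the log2 scale in Fabp4fl_fl mice (adjusted p = 0.0371 and 0.0234). Vamp1, the VAMP of fast-spiking and hindbrain neurons, was not called in either genotype (-0.96 ± 0.49 and -1.41 ± 0.48, adjusted p = 0.142 and 0.0593). Its sham levels of 314, 296 and 105 CPM in Fabp4fl_fl split mouse 3 from mice 1 and 2. Without that mouse Vamp1 was called in Fabp4fl_fl mice (-1.36 ± 0.40, adjusted p = 0.0433).

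The complexins clamp and then promote SNARE-driven fusion. They were the only role with no member called in either genotype in the edgeR fits used throughout, before any alternative. DESeq2 on all Fabp4CKO libraries called Cplx1 and Cplx2 lower, against 24.1% of all genes, and edgeR with a replicate block called Cplx2 there. Cplx1 stood at 806, 781 and 496 CPM in Sham-Fabp4fl_fl and 249, 423 and 611 CPM in ICH-Fabp4fl_fl (log2 fold change -0.73 ± 0.36, adjusted p = 0.137), and at 584, 556 and 566 CPM and 313, 475 and 161 CPM in the Fabp4CKO groups (-0.85 ± 0.37, adjusted p = 0.111). Cplx2, the major complexin of forebrain excitatory neurons, stood at 677, 768 and 1109 CPM and 236, 436 and 971 CPM in the Fabp4fl_fl groups (-0.66 ± 0.50, adjusted p = 0.312) and at 1141, 1402 and 1013 CPM and 416, 936 and 406 CPM in the Fabp4CKO groups (-1.02 ± 0.37, adjusted p = 0.0723). Within ICH-Fabp4fl_fl both genes were more than 2 times as high in mouse 3 as in mouse 1. Without mouse 3, 36 members fell and the 6 that did not were Cplx3, Rab3b, Sv2c, Syt6, Unc13b and Unc13c, so Cplx1 and Cplx2 passed there. Cplx3, found at ribbon synapses and in some cortical neurons, had 35 to 179 counts per library and stood at 8.63, 5.86 and 3.56 CPM in Sham-Fabp4fl_fl and 2.46, 5.11 and 5.95 CPM in ICH-Fabp4fl_fl, with overlapping groups (-0.44 ± 0.43, adjusted p = 0.428). Without Sham-Fabp4fl_fl mouse 3 it was -0.75 (adjusted p = 0.201). In Fabp4CKO mice its log2 fold change was 0.11 ± 0.35 (adjusted p = 0.810). Without ICH-Fabp4CKO mouse 2, Cplx1 and Cplx2 were called lower in Fabp4CKO mice (-1.26 and -1.53, adjusted p = 0.00382 and 1.64e-04). Cplx3 was not (-0.088, adjusted p = 0.832).

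RAB3 proteins are vesicle GTPases that recruit the effector rabphilin and RIM. Rph3a, the gene of rabphilin, stood at 373, 359 and 273 CPM in Sham-Fabp4fl_fl and 89.1, 126 and 198 CPM in ICH-Fabp4fl_fl (log2 fold change -1.31 ± 0.32, adjusted p = 0.0144), and at 340.2, 348 and 304 CPM and 164, 225 and 86.4 CPM in the Fabp4CKO groups (-1.06 ± 0.34, adjusted p = 0.0514). Rab3a, the main form in brain, stood at 519.8, 499.7 and 434 CPM and 174, 208 and 322 CPM in the Fabp4fl_fl groups and fell by 1.07 ± 0.27 (adjusted p = 0.0157). In the Fabp4CKO groups it was at 481, 499 and 479.6 CPM and 165, 373 and 103 CPM (-1.19 ± 0.46, adjusted p = 0.0803). Rab3b, a form of some interneurons and secretory cells, did not pass the threshold in Fabp4fl_fl (-0.20 ± 0.25, adjusted p = 0.531) or Fabp4CKO mice (-1.24 ± 0.45, adjusted p = 0.0718). Its value turned to 0.027 in Fabp4fl_fl mice without Sham-Fabp4fl_fl mouse 3, and in Fabp4CKO mice it was -1.97 and called without ICH-Fabp4CKO mouse 2 (adjusted p = 1.78e-05).

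To ask which members moved apart from neuronal transcripts at large, counts were rescaled so that 16 pan-neuronal genes had the same mean log2 level in every library. On this scale the median of all genes shifted to 1.24 in Fabp4fl_fl and 1.5 in Fabp4CKO mice, so 61.7% and 68.5% of all genes were called higher in ICH and 2.31% and 0.611% lower. The 42 members had a median of -0.13 in Fabp4fl_fl and 0.11 in Fabp4CKO mice, against a mean of the pan-neuronal genes held at 0. This scaling did not hold neuron classes equal. Cortical excitatory neuron genes had medians of -1.71 (6 of 10 lower) in Fabp4fl_fl and 1.51 (7 of 10 higher) in Fabp4CKO mice. Thalamic neuron genes were at -1.24 (5 lower) and 0.44 (3 higher, 2 lower). Striatal projection neuron genes were at 0.41 (2 higher) and 0.18 (0 called). Their part in the members' values was not tested. In Fabp4fl_fl mice 5 members were still lower: Rims3 at -1.72 ± 0.39 (log2, adjusted p = 2.46e-04), Syt13 at -1.27 ± 0.38 (adjusted p = 0.00385), Pclo at -1.0 (adjusted p = 0.0192), Syn2 at -0.98 (adjusted p = 0.0211) and Sv2b at -0.87 (adjusted p = 0.0421). For Rims3 the log2 ratio to the mean of the pan-neuronal genes was 0.15, -0.15 and -0.27 in Sham-Fabp4fl_fl and -2.16, -2.34 and -1.17 in ICH-Fabp4fl_fl, and for Syn2 it was 0.45, 0.84 and 0.71 and -0.35, -0.22 and -0.36, with no overlap for either. Members higher on this scale were Unc13c (1.33 ± 0.38, adjusted p = 0.00250), Unc13b (1.42 ± 0.48, adjusted p = 0.00955) and Rab3b (0.93 ± 0.41, adjusted p = 0.0412). The next by p in that direction, Syt11 and Syt6, were at 0.65 and 0.54 and not called (adjusted p = 0.140 and 0.259).

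In Fabp4CKO mice no member was lower on the neuronal scale and 2 were higher, Unc13b (1.69 ± 0.41, adjusted p = 0.0115) and Cplx3 (1.41 ± 0.42, adjusted p = 0.0187). Rims3 was at -0.63 ± 0.33 (adjusted p = 0.110), Pclo at -0.046 and Syn2 at -0.21. The difference between genotypes on this scale was not tested. Both sets of calls moved with single libraries. Without Sham-Fabp4fl_fl mouse 3 the calls of Pclo, Sv2b and Unc13b were lost and Sv2c and Syt6 passed as higher in Fabp4fl_fl mice, which left 3 lower and 4 higher. Without ICH-Fabp4CKO mouse 2 there were 7 higher in Fabp4CKO mice, with Rims1, Sv2c, Syt11, Syt12 and Unc13c added. Leaving the neurofilament genes out of the pan-neuronal list raised the number lower to 12 in Fabp4fl_fl mice. In Fabp4CKO mice it gave 0 lower and 2 higher, the numbers of the full list. The share of all genes called in these alternative fits was not counted.

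**Figure D5:**
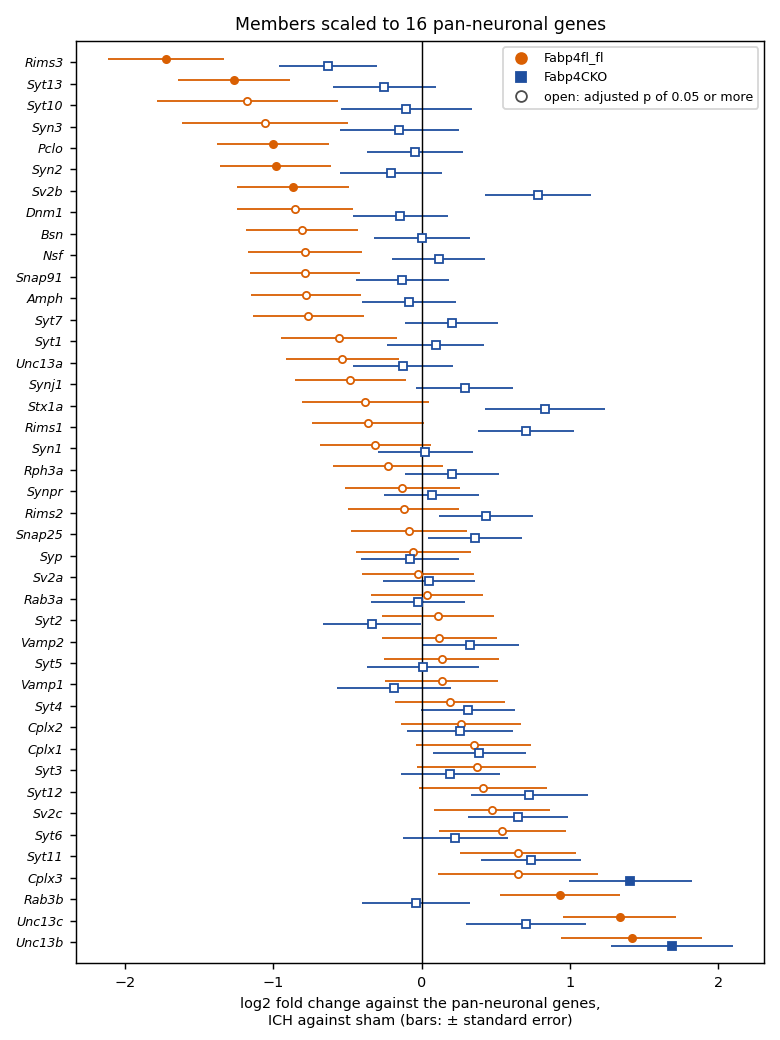
Log2 fold change of each member in ICH against sham after scaling to 16 pan-neuronal genes (points, with bars of 1 standard error), ordered by the value in Fabp4fl_fl mice and filled where the adjusted p was under 0.05. Most members lie within 1 log2 unit of 0, Rims3 is lowest in both genotypes and Unc13b highest in both.

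Between genotypes after ICH none of the 42 members was called (edgeR, smallest adjusted p = 0.356), and none was with DESeq2. Of all genes 0% were called in this comparison. At an unadjusted p under 0.05 there were 2 members, Unc13c and Syt10, against 12.2% of all genes. Unc13c was lower in ICH-Fabp4CKO than in ICH-Fabp4fl_fl, with the values given above and a log2 difference of -0.71 ± 0.25. Syt10 was higher in ICH-Fabp4CKO (1.18 ± 0.43, adjusted p = 0.367). The groups did not overlap for Unc13c or Syt10, and the share of all genes without overlap was not counted here. The next by p were Syn3 at 1.14 ± 0.57 and Stx1a at 1.15 ± 0.58 (adjusted p = 0.464 and 0.465). Without ICH-Fabp4CKO mouse 2 these were 0.64 and 0.21, whereas Unc13c and Syt10 were at -0.70 and 1.15. The standard errors of the 42 differences ran from 0.25 to 0.66 on the log2 scale, with a median of 0.51. Values above 0 numbered 29 and below 0 numbered 13, but without ICH-Fabp4CKO mouse 2 the split was 10 above and 32 below, with 19 members of the other sign and again none called. Syt1 went from 0.46 to -0.27 and Syt5 from 0.33 to -0.66, so the direction of the members between genotypes rested on that library.

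Between sham groups none of the 42 members was called either, against 0.111% of all genes, and none was with DESeq2. At an unadjusted p under 0.05 there were 5, against 10.2% of all genes. Rab3b had the smallest p, at 39.3, 44.2 and 67.9 CPM in Sham-Fabp4fl_fl and 84.0, 69.6 and 84.4 CPM in Sham-Fabp4CKO, without overlap (0.66 ± 0.20, adjusted p = 0.454). Syt10, Syn3 and Cplx2 followed, with log2 differences of 0.44, 0.56 and 0.49 (adjusted p = 0.484 for each). Leaving out Sham-Fabp4fl_fl mouse 3 changed this comparison: 17 members were then called, 9 higher and 8 lower in Sham-Fabp4CKO, against 19.6% of all genes. The largest were Syt6 at 1.4 and Rab3b at 0.94 on the higher side, and Vamp1 at -0.89 and Syt13 at -0.71 on the lower side. Mouse 3 was above both other Sham-Fabp4fl_fl mice by more than 1.5 times for Rab3b, Sv2c, Synpr, Syt5 and Syt6, and below both by more than 1.5 times for Cplx1, Cplx3, Syt13, Syt7 and Vamp1. The striatal and thalamic marker sums given at the start also set mouse 3 apart from mice 1 and 2, and their part in the genotype values was not tested.

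The interaction of ICH and genotype, which tests whether the response to ICH differed between Fabp4CKO and Fabp4fl_fl mice, called none of the 42 members, against 0.0199% of all genes, and none with DESeq2. At an unadjusted p under 0.05 there was 1 member, against 9.94% of all genes. It was Unc13c, with an interaction of -0.92 ± 0.26 on the log2 scale (adjusted p = 0.307). Its mean levels were 125 ± 10.6 CPM (SD, n = 3) in Sham-Fabp4fl_fl, 143 ± 17.7 CPM in ICH-Fabp4fl_fl, 139 ± 2.80 CPM in Sham-Fabp4CKO and 84.1 ± 23.1 CPM in ICH-Fabp4CKO. The next were Sv2b at 1.49 ± 0.71, Rab3b at -1.08 ± 0.55 and Stx1a at 1.24 ± 0.64 (adjusted p = 0.522, 0.548 and 0.550). Without ICH-Fabp4CKO mouse 2 the interaction was 0.68 for Sv2b and 0.29 for Stx1a, -0.90 for Unc13c, and 12 of the 42 members had the other sign. In that fit the interaction of Rab3b was -1.81 ± 0.31 and passed (adjusted p = 0.0276), as the only member. The share of all genes called in that fit was not counted, so this call cannot be set against it.

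Other genes of the nerve terminal were lower as well. Of 55 other presynaptic genes 54 were tested. In Fabp4fl_fl mice 42 fell, against 19.3% of all genes called lower, and in Fabp4CKO mice 17 fell, against 11.1%. None of them was called higher in either. Their median log2 fold changes were -1.2 and -1.04. Doc2a, a high-affinity calcium sensor of spontaneous and asynchronous release, went from 9.40, 12.7 and 9.24 CPM in Sham-Fabp4fl_fl to 0.211, 0.935 and 0.531 CPM in ICH-Fabp4fl_fl (log2 fold change -4.22 ± 0.44, adjusted p = 6.18e-04). Syt17, a calcium-independent relative of the synaptotagmins, and Ppfia2, the gene of the active zone scaffold liprin-alpha-2, were the next by p (log2 fold changes -2.42 and -1.57). In Fabp4CKO mice the smallest p belonged to Itsn1, an endocytic scaffold gene (-0.67 ± 0.13), Cacna1a, the gene of the P/Q-type calcium channel pore (-1.05 ± 0.22), and Slc18a3, the vesicular acetylcholine transporter gene (-1.94 ± 0.43), with adjusted p = 0.0157, 0.0182 and 0.0211. Slc17a7, the vesicular glutamate transporter gene of cortical neurons, was at 387 CPM in ICH-Fabp4CKO mouse 2 against 68.2 and 82.7 CPM in mice 1 and 3. Without ICH-Fabp4CKO mouse 2, 51 of these other presynaptic genes fell in Fabp4CKO mice, against 32.7% of all genes in that fit. Without Sham-Fabp4fl_fl mouse 3, 31 fell in Fabp4fl_fl mice, against 15.1%. On the other side of the synapse 18 of 26 postsynaptic genes fell in Fabp4fl_fl and 7 in Fabp4CKO mice, again with none higher. The shares of all genes called lower there were the 19.3% and 11.1% given above. Without the same libraries the postsynaptic counts were 25 in Fabp4CKO mice, against 32.7% of all genes, and 10 in Fabp4fl_fl mice, against 15.1%. Shank1 and Shank2, scaffold genes of excitatory synapses, and Gria1, a glutamate receptor gene, had the smallest p in Fabp4fl_fl mice (log2 fold changes -2.01, -1.78 and -1.46).

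Family members used for secretion and membrane traffic outside neurons moved the other way. Of 34 listed paralogs 29 were tested. In Fabp4fl_fl mice 17 rose and 2 fell, against 26.2% of all genes called higher and 19.3% lower. In Fabp4CKO mice 18 rose and 3 fell, against 24.5% and 11.1%. The median log2 fold changes of the paralogs were 0.77 and 0.98. Stx11, a syntaxin of leukocytes, rose by 4.13 ± 0.38 on the log2 scale in Fabp4fl_fl mice (adjusted p = 4.14e-04), from 0.337, 0.383 and 0.516 CPM to 9.36, 8.48 and 4.84 CPM. Within several gene families the neuronal form fell and a form used outside neurons rose in Fabp4fl_fl mice. Snap25 fell while Snap23 rose (1.68, adjusted p = 0.00154), Vamp2 fell while Vamp3 (1.31) and Vamp8 (1.91) rose, Dnm1 fell while Dnm2 rose (1.13), Unc13a fell while Unc13d rose (1.88), and Rab3a fell while Rab3d rose (1.35), each in Fabp4fl_fl mice on the log2 scale. In Fabp4CKO mice the same 6 paralogs rose as well, by 2.51, 1.33, 3.07, 1.05, 2.83 and 1.97. Their neuronal partners Snap25, Vamp2, Dnm1, Unc13a and Rab3a were lower there but not called with ICH-Fabp4CKO mouse 2 in the edgeR fit. Without that mouse all of them were called lower (adjusted p = 9.81e-06 to 2.72e-04), against 32.7% of all genes. DESeq2 on all libraries called each of them except Vamp2, against 24.1% of all genes called lower. Other paralogs did not rise in this way: Synj2 (-0.44 in Fabp4fl_fl mice), Napa, Stx3, Stx6, Stx7, Stx8 and Stx12 were not called in either genotype. Napg, the gene of an NSF adaptor, was an exception and fell in both (-1.21 and -0.86), and Vamp4 fell in Fabp4fl_fl mice (-0.53) while Sytl4 and Sytl5 fell in Fabp4CKO mice (-2.58 and -1.64). The pairs of neuronal and other forms were picked with their values in view. The 10 monocyte and macrophage genes were called higher in both genotypes, and their part in the paralogs' values was not tested.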

How the data were processed

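Poly(A) RNA from brain tissue of 12 mice was sequenced by the authors, 1 library per mouse. The deposited table holds estimated counts (expected counts) per gene, without normalization, of which 7.36% to 8.69% per library were not whole; they were rounded. The submitters' processing notes name Bowtie2 2.2.8, HISAT2, StringTie 1.3.1 and DESeq2; the genome build is not given in the sources used here. Groups come from the sample titles. Tests used edgeR 4.0.16 in R 4.3.3 (TMM, filterByExpr with a minimum count of 10 and a total of 15, quasi-likelihood test) on the libraries compared, and on all 12 for the interaction. P-values were Benjamini-Hochberg adjusted over all genes tested, and called means under 0.05. Standard errors are the log2 fold change over the square root of F. Libraries held 15650813 to 22406216 counts, and limits cover counting error only. P-values set a difference between groups against the spread between these samples. Members and gene lists were chosen with earlier results of these data known. Genes were named by p within role: the 4 smallest, with all not called in Fabp4fl_fl, the 4 smallest between genotypes and the 5 smallest each way on the neuronal scale. Within listed gene sets the 3 smallest were named. Within each group no library was a copy of another by a chi-square test, which was not run across groups. Replicate numbers were not used as pairs. Fits were tested on simulated data. Alternatives were another normalization, DESeq2 1.42.0, other filters, a replicate block, 1 fit over 12 libraries, and each library left out.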

Additional observations from a re-analysis of the deposited data

How the results depend on the processing

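In ICH against sham every alternative for Fabp4fl_fl mice kept a median of the members below 0, and the count of members that fell was 27 to 30 under the alternatives other than left-out libraries, against 28. Leaving out each library in turn gave 14 to 36. In Fabp4CKO mice the count of 9 was 35 with DESeq2, against 24.1% of all genes called lower, and 21 with 1 fit over all 12 libraries. It was 13 with relative log expression scaling, 7 with library totals, 11 with either other filter and 0 to 40 without single libraries. For other scalings, filters, the replicate block, the fit of 12 libraries and the shortened pan-neuronal list, the share of all genes called was not counted. Relative to pan-neuronal genes, leaving the neurofilament genes out of that list gave 12 lower members in Fabp4fl_fl mice against 5, and leaving out libraries gave 2 to 13 lower and 1 to 4 higher there, and 0 to 1 lower and 0 to 7 higher in Fabp4CKO mice. Between sham groups leaving out libraries gave 0 to 9 higher and 0 to 8 lower members, and in the interaction 0 to 1 lower. The cause was not tested, beyond the fewer samples of each such fit.

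With the replicate number as a block, 30 members fell in Fabp4fl_fl and 12 in Fabp4CKO mice (6 of them among the 9), and relative to pan-neuronal genes 2 were lower and 1 higher in Fabp4fl_fl and 1 higher in Fabp4CKO mice. The block called none between genotypes. Same-numbered libraries had correlations of deviations of 0.20, 0.023 and 0.13 in ICH against sham of Fabp4fl_fl mice, where different numbers averaged -0.057. They ran from -0.0077 to -0.0044 in Fabp4CKO mice, from -0.58 to 0.31 between genotypes after ICH and from -0.18 to 0.062 between sham groups. In no comparison were all 3 over 0.1, so the numbers were not taken as pairs.

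Over all alternatives no member called in a comparison changed sign there. Among members that were not called, signs turned for 27 of 42 between genotypes after ICH, 19 between sham groups and 25 in the interaction, against 3 and 2 in ICH against sham of Fabp4fl_fl and Fabp4CKO mice. For Unc13b in ICH against sham of Fabp4fl_fl mice the log2 fold change was -0.0045 without a filter on low counts, -0.025 with library totals and -0.23 to 0.30 without single libraries. Other ranges without single libraries in ICH against sham were -0.40 to 0.027 for Rab3b and -0.98 to 0.38 for Syt6 in Fabp4fl_fl mice, and -0.088 to 0.38 for Cplx3 and -1.24 to 0.0064 for Stx1a in Fabp4CKO mice. Relative to pan-neuronal genes in Fabp4CKO mice they were -0.14 to 0.096 for Pclo and -0.16 to 0.18 for Rab3b. Syt10 and Cplx3 had under 200 counts in every library, which limits their precision.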
